A study of Mus musculus with 4 samples.

Results

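The 60 genes described here encode the machinery that builds the mitotic spindle, attaches chromosomes to it, separates them and splits the cell. They were chosen by gene symbol, as a functional group of 12 mitotic kinesins, 10 centromere and kinetochore proteins, 5 spindle checkpoint proteins, 8 mitotic kinases and chromosomal passenger proteins, 6 regulators of cohesion and anaphase onset, 7 condensin and chromosome proteins, 8 spindle assembly factors and 4 cytokinesis proteins. All 60 were measured, by 139 probe sets, among 18193 genes and 45101 probe sets on the arrays. The array annotation listed 58 under the same symbol and the shugoshins Sgol1 and Sgol2 under other symbols, Sgo1 and Sgo2a.

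RNA was measured on Affymetrix 3' expression arrays in basal interfollicular cells of mouse tail epidermis. The question was which genes change when Sox9 is deleted in cells that express SmoM2, a Smoothened mutant that signals in the Hedgehog pathway without ligand. The SmoM2 group (2 arrays) carried K14CreER:SmoM2 and had Sox9, and the Sox9cKO group (2 arrays) carried K14CreER:SmoM2:Sox9cKO, in which Sox9 is conditionally deleted. Both groups therefore carried the transgenes and received tamoxifen, 2.5 mg on each of 10 consecutive days, and tail skin was collected 9 weeks from its start. K14CreER is a Cre recombinase that tamoxifen activates in keratin 14-expressing keratinocytes, so recombination was directed to the epithelium. Cells were sorted as positive for integrin alpha 6, a basal keratinocyte surface protein, and negative for CD34, a marker of hair follicle bulge cells, and 100 ng of RNA per sample was labelled. The labels do not give the age or sex of the mice or how many mice made up a replicate, so the p-values below measure the spread between these samples, which may be technical.

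In mitosis, kinetochores assembled on centromeric chromatin bind spindle microtubules, and the spindle checkpoint holds back the anaphase promoting complex until every chromosome is attached. Kinesins, mitotic kinases and microtubule-bundling proteins shape the spindle, condensin compacts the chromosomes, separase cuts cohesin, and the central spindle then directs cytokinesis. In epidermis, dividing cells lie mainly in the basal layer, and transcripts of this machinery peak in G2 and M phase. Many of these promoters hold a pair of elements known as the CCAAT box, bound by NF-Y, and the cell cycle genes homology region (CHR), bound by the DREAM and MuvB complexes.

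The promoters of 5 genes are shown to let the letters be read beside the values that follow. They are those of Ckap2l, Kif11 and Mki67, 3 genes that rose in Sox9cKO cells, and of Bub3 and Numa1, 2 that did not pass the test. Each sequence runs 5' to 3' on the gene's strand from 250 bases before to 30 bases after a RefSeq start (assembly GRCm38.p6), and capitals mark matches to CCAAT, to the CHR (TTTGAA or TTCGAA) or to an E2F site core (TTCGCGC or TTGGCGC) on either strand, so that ATTGG is a CCAAT box and TTCAAA a CHR read on the other strand. ATTGG and TTGGCGC can share letters.
Ckap2l, chr2:129297183-129297462, minus strand: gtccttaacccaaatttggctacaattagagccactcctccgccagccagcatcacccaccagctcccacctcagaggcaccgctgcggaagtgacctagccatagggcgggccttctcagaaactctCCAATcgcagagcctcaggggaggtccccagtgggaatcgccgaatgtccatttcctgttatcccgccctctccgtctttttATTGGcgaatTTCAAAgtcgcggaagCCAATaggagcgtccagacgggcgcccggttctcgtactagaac
Kif11, chr19:37376132-37376411, plus strand: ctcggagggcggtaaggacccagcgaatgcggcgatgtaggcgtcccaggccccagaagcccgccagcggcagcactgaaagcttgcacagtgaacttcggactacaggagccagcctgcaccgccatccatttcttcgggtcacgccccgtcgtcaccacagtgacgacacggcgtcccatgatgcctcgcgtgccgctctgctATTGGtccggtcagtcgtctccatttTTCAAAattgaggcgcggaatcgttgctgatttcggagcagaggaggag
Mki67, chr7:135716350-135716629, minus strand: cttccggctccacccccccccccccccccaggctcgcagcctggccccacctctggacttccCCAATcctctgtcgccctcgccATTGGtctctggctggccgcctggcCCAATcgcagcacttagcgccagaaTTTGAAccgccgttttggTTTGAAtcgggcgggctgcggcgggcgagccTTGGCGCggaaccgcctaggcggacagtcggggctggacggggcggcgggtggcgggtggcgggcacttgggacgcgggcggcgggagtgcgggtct
Bub3, the first of its RefSeq starts, chr7:131560120-131560399, plus strand: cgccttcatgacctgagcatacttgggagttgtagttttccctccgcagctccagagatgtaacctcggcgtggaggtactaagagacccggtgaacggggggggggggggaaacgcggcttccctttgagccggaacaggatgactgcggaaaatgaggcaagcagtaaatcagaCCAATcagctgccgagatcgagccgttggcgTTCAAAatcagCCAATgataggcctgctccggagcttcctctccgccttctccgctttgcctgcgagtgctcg
Numa1, chr7:101969593-101969872, plus strand: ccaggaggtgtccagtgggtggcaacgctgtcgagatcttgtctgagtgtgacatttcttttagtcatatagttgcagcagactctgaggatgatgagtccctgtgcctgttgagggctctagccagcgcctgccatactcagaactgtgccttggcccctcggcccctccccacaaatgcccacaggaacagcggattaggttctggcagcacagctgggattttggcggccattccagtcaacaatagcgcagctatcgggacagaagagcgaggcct
In Ckap2l a CHR lay at position -30 from the start, between CCAAT boxes at -40 and -14. In Kif11 a CCAAT box lay at -45 and a CHR at -19. Mki67 held CHR matches at -116 and -98 and an E2F core at -67. The Bub3 window held a CHR at -43 between CCAAT boxes at -74 and -32, and the Numa1 window held none of these letters.

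Array medians lay between 5.45 and 5.48 on the log2 scale, replicates correlated at 0.991 over all probe sets and arrays of different groups at 0.978 to 0.980 (Pearson). At the brightest of its 3 probe sets, Sox9 read 10.21 and 10.02 on the SmoM2 arrays and 6.75 and 5.70 on the Sox9cKO arrays, a change of -3.89 (SE 0.31, adjusted p = 0.00171 over all probe sets), while its other probe sets had changes of -0.75 and -0.41 that did not pass. The 12 probe sets for the spiked labelling controls had mean signals of 8.85 and 8.13 on SmoM2 replicates 1 and 2 and of 9.05 and 7.54 on Sox9cKO replicates 1 and 2, so replicate 1 was the brighter in each group. All values below are the deposited log2 signals, and a change is the Sox9cKO mean minus the SmoM2 mean.

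By limma at an adjusted p under 0.05 (Benjamini-Hochberg over all 18193 genes), 26 of the 60 (43.3%) rose and 0 fell, where 2.66% of all genes rose and 3.53% fell, 6.19% in all. At an unadjusted p under 0.05, 45 were higher and 0 lower, where 8.76% of all genes were higher and 9.01% lower. A change above 0 was found for 59 of the 60, against 53.7% of all genes. The median change over the 60 was 0.63, against 0.02 over all genes, and the changes ran from -0.05 for Kif14 to 1.05 for Ckap2l. At least 1.5-fold higher means were found for 36 genes, and 4 reached 2-fold, namely Ckap2l, Aurkb, Kif20b and Nusap1.

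Both Sox9cKO arrays lay above both SmoM2 arrays for 55 of the 60 genes (91.7%), against 26.0% of all genes. The 5 exceptions were Kif14, Kif15, Cenpk, Plk1 and Numa1. The median level of the 60 genes was 8.67 and 8.36 on the SmoM2 arrays and 9.25 and 9.16 on the Sox9cKO arrays. The SmoM2 replicates differed in a shared direction, with replicate 1 above replicate 2 for 55 of the 60 genes, where 53.0% of all genes had that order. In Sox9cKO, replicate 1 was above replicate 2 for 43 of the 60 (71.7%, against 46.7% of all genes). Replicate 1 was thus the higher array in both groups for most of the 60, as it was for the spiked controls, and the part of this in the result was not tested. In these bulk samples, more cells in mitosis and more of these RNAs per cell cannot be told apart.

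**Figure D1:**
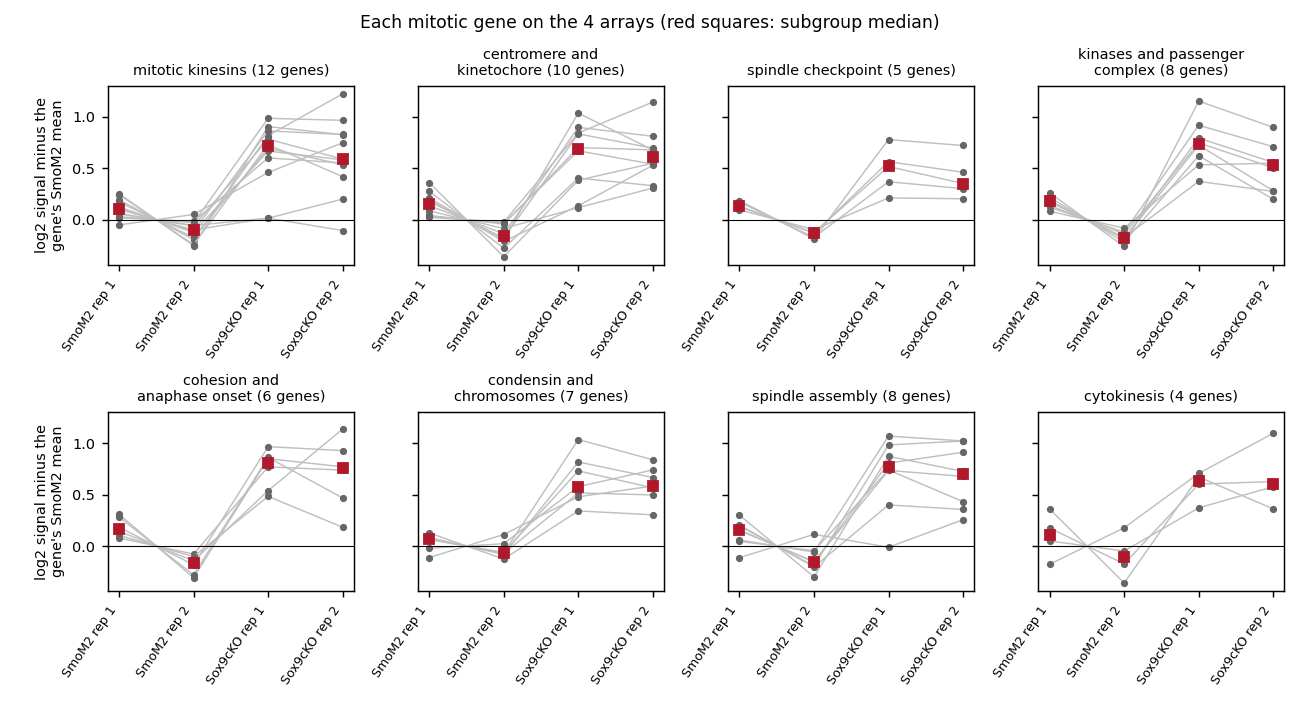
Log2 signal of each of the 60 mitotic genes on the 4 arrays, minus that gene's SmoM2 mean, in 8 panels by role; grey points joined by a line are 1 gene and red squares are the subgroup median on each array. The median lies higher on both Sox9cKO arrays than on both SmoM2 arrays in every panel, and SmoM2 replicate 1 sits above replicate 2 for 55 of the 60 genes.

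The calls depended on having all 4 arrays. Without SmoM2 replicate 1, SmoM2 replicate 2, Sox9cKO replicate 1 or Sox9cKO replicate 2, respectively 11, 1, 8 and 8 members were called, of which 9, 1, 7 and 8 were among the 26. The median change was then 0.76, 0.52, 0.58 and 0.70, and 60, 59, 59 and 59 members had a change above 0. Ckap2l was called in every such fit and Kif11 in 3 of the 4. Fewer of all genes rose in each of these fits too. Without SmoM2 replicate 2 the share that rose among the 60 was close to that among all genes. A fit with 1 array in a group assumes that this array varies as the others do.

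**Figure D2:**
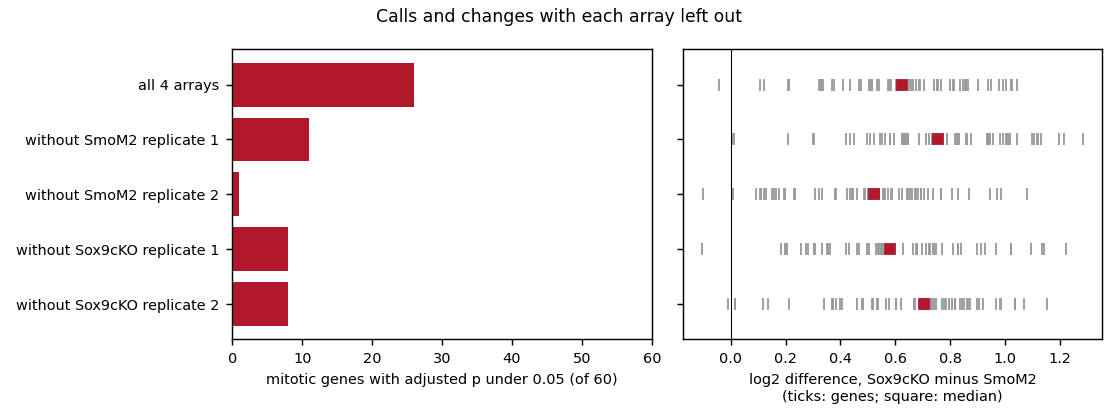
Left, number of the 60 mitotic genes higher at an adjusted p under 0.05 with all 4 arrays and with each array left out. Right, log2 change of each gene (ticks) and their median (square) in the same fits: the count of calls falls from 26 to between 1 and 11, while the median change stays between 0.52 and 0.76.

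Mitotic kinesins are motor proteins that slide, cap or depolymerise spindle microtubules or carry chromosomes and midzone proteins along them. Of the 12, 6 rose, where 2.66% of all genes did, and the median change was 0.62. Kif11 (Eg5), which pushes the spindle poles apart, read 8.29 and 8.23 on the SmoM2 arrays and 9.25 and 9.23 on the Sox9cKO arrays. That is a 1.97-fold rise (0.98, SE 0.13, adjusted p = 0.00603), with replicates much closer to each other than the groups were. Kif2c (MCAK), which depolymerises microtubules at centromeres, read 8.78 and 8.56 against 9.53 and 9.50, 1.80-fold higher (0.85, SE 0.14, adjusted p = 0.0158). Kif20b, a motor needed for late cytokinesis, read 7.63 and 7.25 against 8.26 and 8.66 and rose 2.03-fold (1.02, SE 0.20, adjusted p = 0.0269), with a visible spread inside each group.

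Kif23 (MKLP1), the motor of the centralspindlin complex, rose by 0.87, Kif18b, which acts on astral microtubules, by 0.69 and Kif22 (Kid), a chromosome arm motor, by 0.58. A further 4 kinesins did not pass the test but were higher on both Sox9cKO arrays, as were 26.0% of all genes. Their changes were 0.63 for Kifc1, 0.62 for Kif4, 0.60 for Kif18a and 0.57 for Kif20a. Kif14 and Kif15 were the members of lowest signal and the only ones with a mean under 5.5. Kif15 read 4.64 and 4.44 against 4.55 and 4.74 (0.11, adjusted p = 0.797) and Kif14 read 4.02 and 3.91 against 3.98 and 3.86 (-0.05, adjusted p = 0.917), so their groups overlapped. The Kif11 and Kif20b calls were lost when all probe sets of a gene were averaged (adjusted p = 0.0556 and 0.126), those of Kif2c and Kif22 without probe sets marked as cross-hybridising (0.17 and 0.0737), and those of Kif23 and Kif22 after a further quantile normalization (0.0502 and 0.0541). Of the 6 calls, 3, 0, 2 and 1 held without SmoM2 replicates 1 and 2 and Sox9cKO replicates 1 and 2, in that order.

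At the centromere and kinetochore, 6 of 10 genes rose, against 2.66% of all genes, and the median change was 0.65. Spc25, a subunit of the microtubule-binding NDC80 complex, read 8.39 and 8.34 on the SmoM2 arrays and 9.21 and 9.51 on the Sox9cKO arrays and rose 1.99-fold (0.99, SE 0.15, adjusted p = 0.0108). Cenpf, a large protein of the outer kinetochore, read 8.96 and 8.69 against 9.72 and 9.64, 1.81-fold higher (0.86, SE 0.15, adjusted p = 0.0188). Nuf2, another NDC80 subunit, read 7.71 and 7.63 against 8.37 and 8.35 (1.61-fold, 0.69, SE 0.13, adjusted p = 0.026). In all 3 the gap between the groups was larger than the gap between replicates.

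Cenpe, the kinetochore kinesin, rose by 0.86, Cenpa, the histone H3 variant that marks centromeres, by 0.77 and Cenpi, a protein of the constitutive centromere network, by 0.61. The other subunits of the NDC80 complex did not pass: Ndc80 read 7.88 and 7.16 against 7.91 and 8.07 (0.47, adjusted p = 0.371), with most of its spread between the SmoM2 arrays, and Spc24 had a change of 0.37. Cenpk overlapped between the groups, at 8.30 and 7.88 against 8.22 and 8.62 (0.33, adjusted p = 0.472), and its change was -0.05 when its probe sets were averaged. Cenpn had a change of 0.21. The numbers of the 6 calls that held without SmoM2 replicates 1 and 2 and Sox9cKO replicates 1 and 2 were 1, 0, 1 and 2, and Cenpe was also lost when probe sets were averaged (adjusted p = 0.0543). Cenpa and Cenpe were lost after a further quantile normalization (0.0526 and 0.0512) and Cenpi with an intensity trend and robust prior (0.0502).

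The spindle checkpoint proteins had the smallest median change of the 8 subgroups, 0.43, and 1 of 5 rose, against 2.66% of all genes. Ttk (Mps1), the kinase that starts checkpoint signalling at unattached kinetochores, read 8.59 and 8.22 on the SmoM2 arrays and 9.19 and 9.13 on the Sox9cKO arrays, 1.68-fold higher (0.75, SE 0.16, adjusted p = 0.0436). Bub1b (BubR1), part of the mitotic checkpoint complex, read 8.70 and 8.43 against 9.13 and 9.03 (0.51, SE 0.15, adjusted p = 0.112). Bub1, a kinetochore kinase, read 8.96 and 8.71 against 9.35 and 9.19 (0.43, SE 0.15, adjusted p = 0.185). The groups overlapped for neither gene, and all 5 genes had both Sox9cKO arrays above both SmoM2 arrays, as did 26.0% of all genes.

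The Bub1 probe sets differed in size of change. The dimmer one read 3.84 and 4.20 against 5.03 and 5.81, a change of 1.40 (adjusted p = 0.0363 over all probe sets), and the mean of both gave 0.92 (adjusted p = 0.0168). Mad2l1 (Mad2), the checkpoint protein that is handed to Cdc20, had a change of 0.34. Bub3, a scaffold of the checkpoint, read 11.13 and 10.94 against 11.25 and 11.24 (0.21, SE 0.14, adjusted p = 0.53), and 3 of its 5 probe sets had changes below 0, down to -0.39 (adjusted p = 0.245). The Ttk call was lost with any 1 array left out (adjusted p 0.0517 to 0.193), when probe sets were averaged (0.11) and after a further quantile normalization (0.0512).

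Among the mitotic kinases and the chromosomal passenger complex, 2 of 8 rose, against 2.66% of all genes, and the median change was 0.58. Aurkb (Aurora B), the kinase of the passenger complex that corrects wrong attachments, read 7.88 and 7.36 on the SmoM2 arrays and 8.77 and 8.52 on the Sox9cKO arrays and rose 2.04-fold (1.03, SE 0.20, adjusted p = 0.0282). Plk4, which starts centriole duplication, read 9.14 and 8.90 against 9.94 and 9.73, 1.76-fold higher (0.81, SE 0.16, adjusted p = 0.0255), and its call was lost with averaged probe sets (adjusted p = 0.137) and without cross-hybridising ones (0.186). Both Aurkb probe sets are marked as cross-hybridising, so Aurkb has no value without them and neither call of this subgroup was kept there. Incenp, the scaffold that activates Aurkb, read 10.15 and 9.99 against 10.60 and 10.62 (0.54, SE 0.14, adjusted p = 0.0716).

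The other passenger proteins, Cdca8 (borealin) and Birc5 (survivin), had changes of 0.50 and 0.32 without passing. Thus 1 of the 4 passenger genes rose, where 2.66% of all genes did. Aurka (Aurora A), a kinase of the spindle poles, had a change of 0.68 (adjusted p = 0.0756) and Nek2, a kinase that splits the centrosomes, 0.63 (adjusted p = 0.0765). Plk1, which acts at many steps of mitosis, overlapped between the groups, at 8.18 and 7.74 against 8.58 and 8.16 (0.41, adjusted p = 0.37). The Aurkb and Plk4 calls both held without Sox9cKO replicate 2, 1 held without SmoM2 replicate 1, and 0 held without SmoM2 replicate 2 or Sox9cKO replicate 1 (adjusted p 0.102 to 0.15).

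Cohesion and anaphase genes had a median change of 0.78, and 2 of 6 rose, against 2.66% of all genes. Sgol2 (shugoshin 2), which protects centromeric cohesin, read 7.30 and 6.94 on the SmoM2 arrays and 8.09 and 8.05 on the Sox9cKO arrays, 1.93-fold higher (0.95, SE 0.16, adjusted p = 0.0169). Sgol1 (shugoshin 1) read 8.09 and 7.93 against 8.78 and 8.75 (1.69-fold, 0.75, SE 0.14, adjusted p = 0.0212). Ube2c, the ubiquitin-conjugating enzyme of the anaphase promoting complex, read 10.28 and 9.66 against 10.82 and 10.74 (0.81, SE 0.21, adjusted p = 0.0762).

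Its change was larger than that of Sgol1, but its SmoM2 replicates lay further apart. Espl1 (separase) had a change of 0.84 (adjusted p = 0.0778), Pttg1 (securin) of 0.66 and Cdc20, the activator of the anaphase promoting complex, of 0.33, none of which passed. All 6 genes had both Sox9cKO arrays above both SmoM2 arrays, as did 26.0% of all genes. Of the 2 calls, 1 held without SmoM2 replicate 1 and 1 without Sox9cKO replicate 2, and 0 without SmoM2 replicate 2 or Sox9cKO replicate 1 (adjusted p 0.0589 to 0.128).

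Of the 7 condensin and chromosome genes, 4 rose, against 2.66% of all genes, with a median change of 0.65. Mki67 (Ki-67), which coats mitotic chromosomes and is the usual marker of cycling cells, read 10.89 and 10.76 on the SmoM2 arrays and 11.86 and 11.66 on the Sox9cKO arrays and rose 1.92-fold (0.94, SE 0.14, adjusted p = 0.011). Ncapg, a condensin I subunit, read 8.18 and 8.02 against 8.92 and 8.77 (1.67-fold, 0.74, SE 0.14, adjusted p = 0.0267). Top2a, the topoisomerase that untangles sister chromatids, read 10.78 and 10.83 against 11.38 and 11.55 (1.58-fold, 0.66, SE 0.14, adjusted p = 0.0367).

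Ncapd2, a second condensin I subunit, rose by 0.65. The ATPase subunits shared by both condensins, Smc4 and Smc2, had changes of 0.51 (adjusted p = 0.0851) and 0.53 (adjusted p = 0.0915), and Ncaph, the kleisin of condensin I, of 0.32. In all 7 both Sox9cKO arrays lay above both SmoM2 arrays, as in 26.0% of all genes. With averaged probe sets Ncapg, Top2a and Ncapd2 no longer passed (adjusted p 0.0582, 0.0697 and 0.134). Without Sox9cKO replicate 1 or 2, 1 of the 4 calls held in each fit, and without SmoM2 replicate 1 or 2 none did by limma (adjusted p 0.0527 to 0.2).

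Spindle assembly factors nucleate, bundle or anchor microtubules, and 4 of 8 rose, against 2.66% of all genes, with a median change of 0.75. Ckap2l (radmis), a spindle pole protein, had the lowest p and the largest change of the 60 genes. It read 7.70 and 7.58 on the SmoM2 arrays and 8.71 and 8.67 on the Sox9cKO arrays, 2.06-fold higher (1.05, SE 0.13, adjusted p = 0.00503). Nusap1, a microtubule-bundling protein, read 9.48 and 9.09 against 10.27 and 10.31 (2.00-fold, 1.00, SE 0.17, adjusted p = 0.0148). Aspm, a spindle pole protein that orients divisions in progenitors, read 8.65 and 8.34 against 9.30 and 9.41 (1.81-fold, 0.86, SE 0.16, adjusted p = 0.0214).

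For these genes the Sox9cKO replicates lay closer together than the SmoM2 replicates. Ckap2, the paralogue of Ckap2l, rose by 0.71. Hmmr, a spindle and hyaluronan-binding protein, had a change of 0.80 (adjusted p = 0.0782), Tpx2, the activator of Aurka on the spindle, of 0.59 (adjusted p = 0.0824) and Dlgap5 (HURP) of 0.38. Numa1, which tethers spindle poles to the cell cortex and is present in the interphase nucleus too, read 10.03 and 10.26 against 10.13 and 10.40 (0.12, SE 0.16, adjusted p = 0.785), with overlapping groups.

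The Nusap1 and Aspm calls were lost with averaged probe sets (adjusted p = 0.0644 and 0.266). Of the 4 calls, 3, 1, 2 and 1 held without SmoM2 replicates 1 and 2 and Sox9cKO replicates 1 and 2, in that order. Hmmr and Tpx2 each had another probe set that rose in the test over all probe sets, by 0.83 (adjusted p = 0.0276) and 0.80 (adjusted p = 0.0361).

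In cytokinesis, 1 of 4 genes rose, against 2.66% of all genes, and the median change was 0.57. Ect2, the exchange factor that activates RhoA at the division plane, read 8.55 and 8.90 on the SmoM2 arrays and 9.43 and 9.82 on the Sox9cKO arrays and rose 1.87-fold (0.90, SE 0.19, adjusted p = 0.0384). Prc1, the bundler of the central spindle, read 8.82 and 8.47 against 9.25 and 9.27 (0.61, SE 0.16, adjusted p = 0.0765). Anln (anillin), which scaffolds the contractile ring, read 10.02 and 9.92 against 10.34 and 10.55 (0.47, SE 0.14, adjusted p = 0.124). Racgap1, the partner of Kif23 in centralspindlin, had a change of 0.52 (adjusted p = 0.339). All 4 genes were higher on both Sox9cKO arrays, as were 26.0% of all genes. With 1 array left out, the Ect2 change ran from 0.71 to 1.10, and its call was lost in most of these fits.

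**Figure D3:**
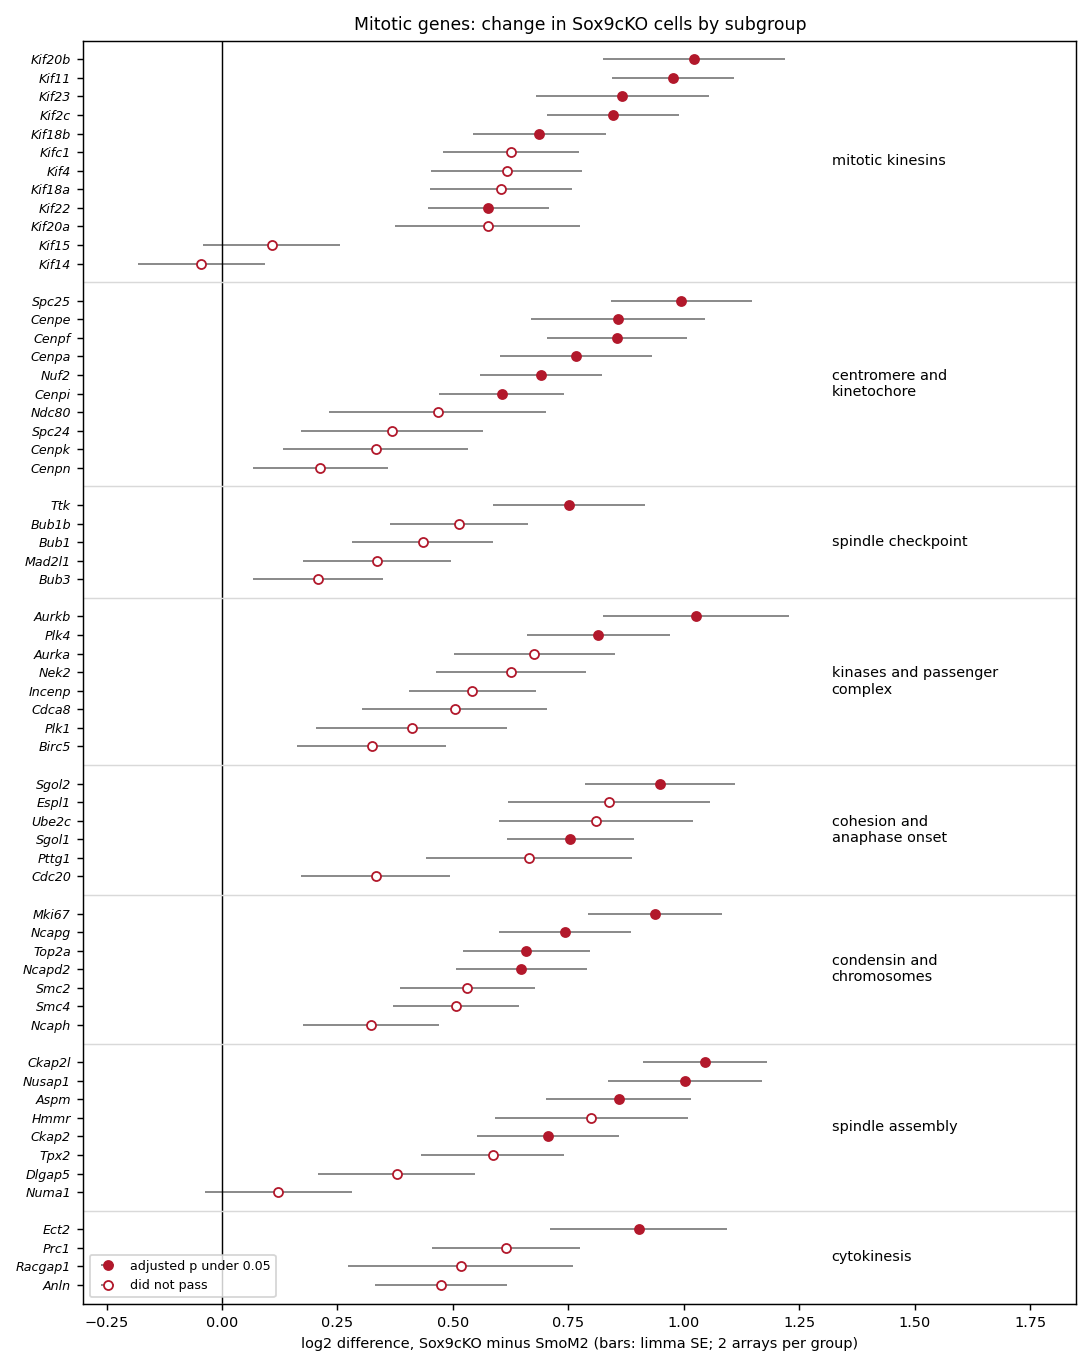
Log2 change of each of the 60 genes (Sox9cKO mean minus SmoM2 mean, 2 arrays per group) with its limma SE as a bar, grouped by role; filled points have an adjusted p under 0.05 over all genes and open points do not. The changes run from -0.05 for Kif14 to 1.05 for Ckap2l, and each of the 8 subgroups holds at least 1 filled point.

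Median changes of the 8 subgroups ran from 0.43 for the checkpoint to 0.78 for cohesion and anaphase onset, and differences between subgroups were not tested. The genes that did not pass were mostly on the same side, since 29 of the 34 had both Sox9cKO arrays above both SmoM2 arrays (26.0% of all genes did) and 13 had an adjusted p from 0.05 up to 0.1. Signals were mostly well up the scale, with 58 of the 60 at or above the median gene signal of 6.53. Among all genes in that range, 3.50% rose.

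Over the 139 probe sets, 22 rose (from 19 genes) and 0 fell by limma, where 1.48% of all probe sets rose and 2.34% fell. The median change was 0.55, with 128 changes above 0 and 11 below, and 109 probe sets had both Sox9cKO arrays above both SmoM2 arrays, as did 22.6% of all probe sets. For 5 probe sets, some of them of Bub3, both Sox9cKO arrays lay below both SmoM2 arrays. Among all genes, read at 1 probe set each, 21.8% had that order. Of the 11 with a change below 0, 9 had a mean signal under 5.5, and the others belonged to Bub3 and Numa1. Of the 41 genes with several probe sets, 34 had changes above 0 at all of them and 7 had both signs, namely Bub3, Cenpk, Incenp, Kif18a, Nek2, Numa1 and Racgap1. For Bub1, Hmmr and Tpx2, the probe set that rose was not the brightest, so these genes are not among the 26.

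The rest of the mitotic pathway was read in 5 further lists. There, 106 of 109 genes were measured, 7 (6.60%, against 2.66% of all genes) rose and 0 fell by limma, and the median change was 0.24. At an unadjusted p under 0.05, 40 of the 106 were higher and 0 lower, beside 8.76% and 9.01% of all genes. Of 27 other kinetochore and checkpoint genes 4 (14.8%) rose, with a median of 0.34. Knl1, the scaffold that recruits the Bub proteins, read 7.12 and 7.20 against 8.11 and 8.04 (0.92, SE 0.13, adjusted p = 0.00826), and Kntc1 (Rod) rose by 0.68, Cenpl by 0.73 and Ska2 by 0.66. Of 14 condensin II and cohesin genes 1 (7.14%) rose, Ncapd3 by 0.65, while Esco2 had a change of 0.95 (adjusted p = 0.125) and Stag2 of 0.45. The Ncapd3 call was lost with averaged probe sets (limma adjusted p = 0.269) and without cross-hybridising ones (0.571).

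Of 38 other spindle, centrosome and cytokinesis genes 1 (2.63%, against 2.66% of all genes) rose, Depdc1a by 0.85. The Depdc1a call was lost with averaged probe sets (limma adjusted p = 0.0556) and after a further quantile normalization (0.0551). Melk had a change of 0.64 and Arhgap11a of 0.51, and neither passed. Of 15 subunits and inhibitors of the anaphase promoting complex 1 (6.67%) rose, the inhibitor Fbxo5 (Emi1), by 0.80. The Fbxo5 call was lost after a further quantile normalization (limma adjusted p = 0.0517). Anapc13 had a change of 0.34 and Cdc27 of -0.19, and the median was 0.07. Of 12 mitotic cyclins and Cdk1 regulators, 0 passed in limma and the median was 0.42. At an unadjusted p under 0.05, 8 were higher and 0 lower, beside 8.76% and 9.01% of all genes. Ccnb2 (cyclin B2) read 9.88 and 9.51 against 10.44 and 10.34 (0.69, SE 0.17, adjusted p = 0.0586), Cdk1 had a change of 0.59 and Bora of 0.55. Most of the 7 calls in these lists were lost with any 1 array left out. The median change of the 106 genes was 0.27 and 0.17 without SmoM2 replicates 1 and 2, respectively. Without Sox9cKO replicates 1 and 2 it was 0.22 and 0.25.

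Among 21 regulators of mitotic transcription, 1 (4.76%, against 2.66% of all genes) rose and the median change was 0.17. E2f7, a repressor among the E2F factors, read 7.29 and 7.14 against 7.97 and 7.93 (0.73, SE 0.14, adjusted p = 0.0229), a call lost with any 1 array left out (adjusted p 0.0726 to 0.134). E2f3 had a change of 0.58 (adjusted p = 0.0642) and Nfya, a subunit of NF-Y, of 0.55 (adjusted p = 0.0725). Foxm1, an activator of G2 and M phase genes, had a change of 0.23 (adjusted p = 0.514) and Mybl2, which acts with it, of -0.27 (adjusted p = 0.47), both named after their values were seen.

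DNA replication genes, which act in S phase, had a median change of 0.18 over 39 measured genes, of which 32 had a change above 0 (53.7% of all genes did) and 17, or 43.6%, had both Sox9cKO arrays above both SmoM2 arrays (26.0% of all genes did). By limma 0 passed, with 8 of the 39 higher and 0 lower at an unadjusted p under 0.05, a cut that 8.76% and 9.01% of all genes met. Gins3 had a change of 0.52 (adjusted p = 0.0913), Pola1 of 0.46 (adjusted p = 0.11) and Tk1 of 0.47 (adjusted p = 0.169). The difference between this list and the 60 mitotic genes was not tested.

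Kinesins that work outside mitosis, in transport and cilia, had a median change of -0.04 over 25 genes. None rose by limma and 2 fell, as did 3.53% of all genes. At an unadjusted p under 0.05, 3 of the 25 were higher and 3 lower, beside 8.76% and 9.01% of all genes. Kif26b read 8.87 and 8.19 against 5.55 and 6.00, 6.75-fold lower (-2.75, SE 0.25, adjusted p = 0.00127). Kifc3, a minus-end motor at cell junctions, read 8.05 and 8.65 against 6.33 and 6.84, 3.40-fold lower (-1.77, SE 0.24, adjusted p = 0.00684). Both calls held with any 1 array left out, and Kifc2 had a change of 0.57 (adjusted p = 0.0519).

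**Figure D4:**
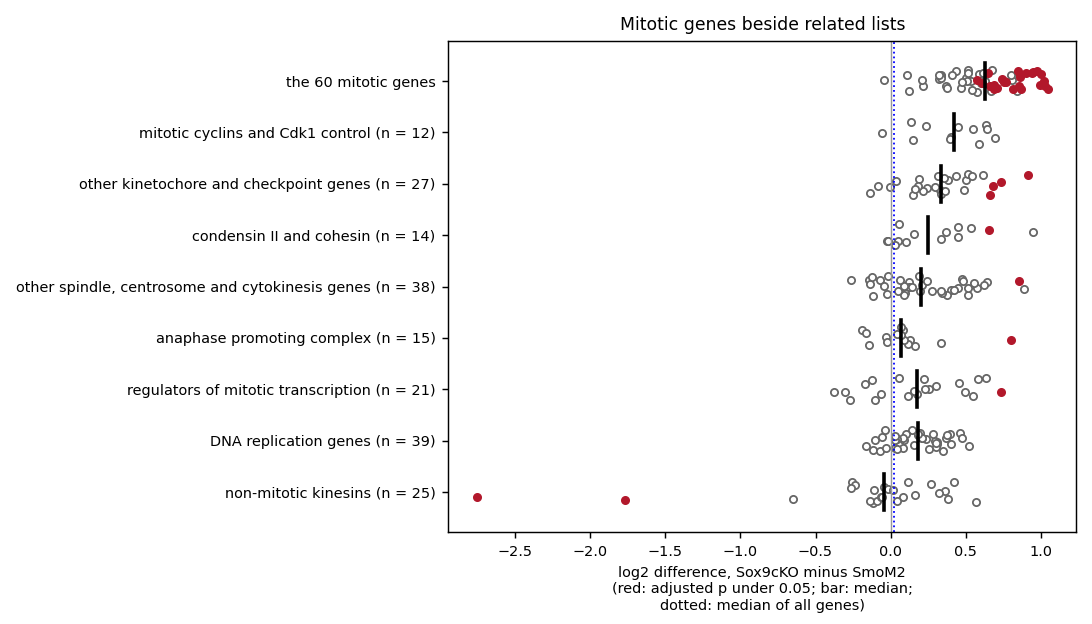
Log2 change (Sox9cKO mean minus SmoM2 mean) of each gene in the 60 mitotic genes and 8 related lists; red points have an adjusted p under 0.05, black bars are list medians and the dotted line is the median of all genes. The median is 0.63 for the 60 genes, 0.42 for cyclins and Cdk1 control, 0.18 for DNA replication and -0.04 for the non-mitotic kinesins, where Kif26b and Kifc3 lie far to the left.

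Short promoter motifs were counted in the same 280-base window for the 53 of the 60 genes with a RefSeq promoter. A CHR was found in 66.0% of them, against 16.8% of 14452 genes on the arrays and 20.9% of all genes in the promoter table. A CCAAT box was found in 73.6% against 41.1% of genes on the arrays, and both motifs together in 58.5% against 6.58%. An E2F core was found in 11.3% against 6.30%.

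Matches were found both in genes that rose and in genes that did not: a CHR was found in 18 of 25 (72.0%) that rose and 17 of 28 (60.7%) that did not, and the difference was not tested. Ckap2l, Kif11 and Mki67 had all risen, and Bub3 carries the same CHR and CCAAT letters without having passed. The other 7 of the 25 that rose, Nusap1, Plk4, Nuf2, Sgol1, Sgol2, Cenpe and Cenpi, had no CHR match in this window. Of 30 DNA replication genes, 6 held a CHR, 18 a CCAAT box and 8 (26.7%) an E2F core, and of 19 non-mitotic kinesins 4 (21.1%) held a CHR. A match describes the letters and does not show binding.

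**Figure D5:**
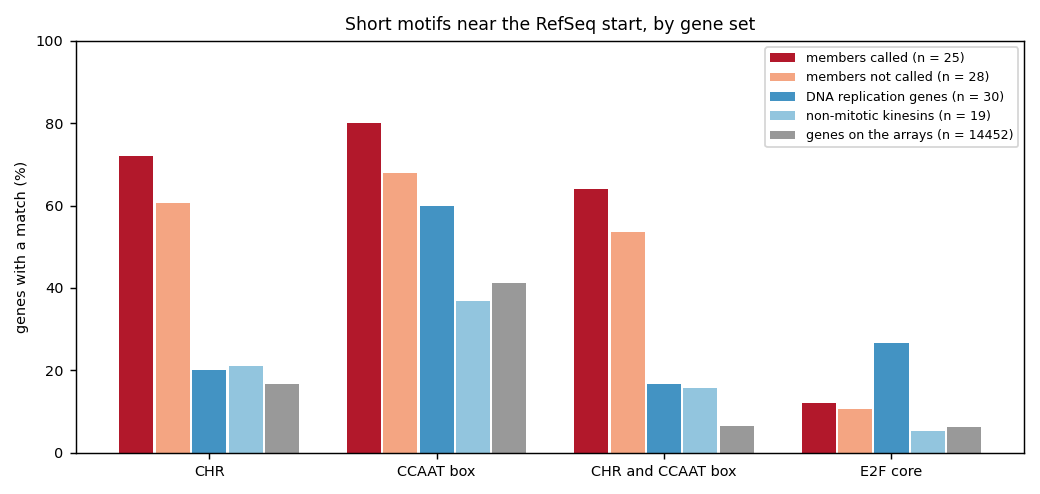
Percent of genes whose promoter window (250 bases before to 30 after the RefSeq start) holds a CHR, a CCAAT box, both, or an E2F core, for the mitotic genes that rose or did not, DNA replication genes, non-mitotic kinesins and all genes on the arrays. The CHR bars stand at 72.0% and 60.7% for the mitotic genes and at 16.8% for all genes on the arrays.

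Some genes used as markers of other cells also differed between the groups. Of 8 hair matrix and inner root sheath markers 6 rose (Krt25, Krt71, Krt73, Tchh, Msx2 and Gata3), where 2.66% of all genes did. Krt27 and Hoxc13 did not pass, with changes of 0.72 and -0.14. The summed level of the 8 (log2 of summed linear signals) was 10.29 and 10.30 on the SmoM2 arrays and 11.41 on each Sox9cKO array. The fibroblast sum was 9.21 and 9.02 against 12.13 and 12.81, a difference carried by Dcn, which alone of the 6 markers rose (3.66). The other fibroblast markers did not pass, with changes of 0.72 for Col1a2, 0.35 for Pdgfra, 0.17 for Col3a1, -0.02 for Col1a1 and -0.07 for Lum, and the list median was 0.26. Suprabasal markers summed to 14.32 and 14.17 against 14.16 and 14.68, with Lor and Flg rising among 6. The other suprabasal markers did not pass, with changes of 0.81 for Ivl, 0.40 for Krt10, 0.28 for Krt1 and -0.49 for Sbsn. Langerhans and myeloid markers summed to 9.02 and 8.78 against 9.40 and 9.28, with H2-Aa rising among 7.

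The 6 basal keratinocyte markers, the sorted cell type, summed to 14.98 and 15.26 against 14.78 and 14.99, and 0 of them passed in limma. At an unadjusted p under 0.05, 0 of the 6 were higher and 4 lower, beside 8.76% and 9.01% of all genes. T cell, endothelial and melanocyte lists had 0 calls in limma, and at an unadjusted p under 0.05 the melanocyte list had 1 gene higher and the others 0. T cell markers summed to 6.84 and 6.78 on the SmoM2 arrays against 6.85 and 7.08 on the Sox9cKO arrays. Endothelial markers summed to 6.91 and 7.04 against 6.83 and 7.03, and melanocyte markers to 9.04 and 8.96 against 9.15 and 9.60. Changes above 0 were found for all 5 T cell, 1 of 5 endothelial and all 6 melanocyte markers, against 53.7% of all genes. Which cells the marker RNAs came from was not tested, nor was the part of other cells in the change of the mitotic genes.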

How the data were processed

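Log2 signals of probe sets were deposited by the authors. The log2 scale was read from their range; how they were normalized is not stated in the labels, and the submitters' processing notes name R 2.14.0 without its role. Array medians are nearly equal, so a shift shared by most genes would not be seen. Of 45101 probe sets, 64 were controls, 34958 had 1 gene symbol in the platform annotation, 932 had several and 9211 were not listed; 34945 were used. Each of 18193 genes was read at its brightest probe set, by the mean of the 4 arrays.

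Groups were compared in R 4.3.3 with limma 3.58.1 (lmFit, eBayes, two-sided, 7.17 degrees of freedom with the prior), with Benjamini-Hochberg adjustment over all genes, or over all probe sets other than controls where stated, and a threshold of 0.05. An exact permutation test of 2 against 2 arrays cannot go below 0.333, so none was used. Arrays give no read depth, and their number limits the precision. The procedure was tested on simulated data.

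The members and gene lists were chosen with earlier results of these data known, so no list was tested. Values per array are given for the 3 members of smallest p in each subgroup and the members of largest, smallest and negative change; the other members, those with disagreeing probe sets included, are named with their change, and the 3 genes of smallest p are named from each related list. Promoters come from RefSeq (GRCm38.p6); the array annotation names no build in the sources used here. Motifs were matched exactly on both strands, over all listed starts of a gene.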

Additional observations from a re-analysis of the deposited data

How the results depend on the processing

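The median change of the 60 mitotic genes stayed between 0.52 and 0.76 under every alternative run. The number that rose was 26 with all 4 arrays, 22 with averaged probe sets (16 of them among the 26), 24 of 58 without cross-hybridising probe sets, 26 with an intensity trend and robust prior, 27 of 58 without dim genes, 21 after a further quantile normalization and 26 after median centring. With the replicate number as a block, 40 of the 60 rose, 65 of their probe sets, 22 of the other mitotic genes and 1919 of all genes. The labels do not say that numbers pair samples, and deviations of same-numbered arrays correlated at 0.0923 over all genes, with only 2 pairs. Replicate 1 was above replicate 2 for 55 (SmoM2) and 43 (Sox9cKO) of the 60. In both groups replicate 1 was also the higher for the spiked controls, the 18S controls and the difference between the 3' and 5' probe sets for Actb. Whether same-numbered samples were processed together was not tested, and the block result is not used. Leaving out 1 array gave 534 to 900 calls among all genes (1126 with all 4), 1 to 11 among the 60, 1 to 11 among their probe sets and 0 to 3 among the other mitotic genes. DNA replication genes had 1 call with averaged probe sets. The sign turned, with no call on either side, for Cenpk with averaged probe sets (-0.045), Bub3 with averaged probe sets (-0.0408) and without cross-hybridising probe sets (-0.3879), Numa1 without cross-hybridising probe sets (-0.0162) and without Sox9cKO replicate 2 (-0.0118, range -0.0118 to 0.2559 with 1 array left out), and Kif14 without SmoM2 replicate 1 (0.0114) and without Sox9cKO replicate 2 (0.0152, range -0.1053 to 0.0152). The cause was not tested.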

Other observations

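In a narrower window, from 50 bases before to 30 bases after the start, chosen after the matches were seen, a CHR was found in 28 of the 53 mitotic genes with a promoter (52.8%), in 6.67% of DNA replication genes, 15.8% of non-mitotic kinesins and 3.74% of genes on the arrays. Among the mitotic genes that rose the share was 56.0%, and of the 28 that did not pass 14 held it.

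Signals of the 18S ribosomal RNA controls averaged 11.24 and 10.09 on SmoM2 replicates 1 and 2 and 11.12 and 9.87 on Sox9cKO replicates 1 and 2. The difference between the 3' and 5' probe sets for Actb was 0.74, 0.46, 0.75 and 0.52 on the same arrays.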
